A study of Mus musculus with 3 samples.

Results

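The AP-1 transcription factor subunits described here are 8 genes, Fos, Fosb, Fosl2, Jun, Junb, Jund, Atf3 and Atf4, taken by name from the count tables of 3 single-cell libraries. All 8 were listed in every table, among 14221 genes listed in at least 1 table and 11979 listed in all 3. Each library came from brain cells of an adult mouse, taken by a CD11b+ CD45+ sort after digestion with collagenase IV, hyaluronidase and DNase I. The groups were 2 libraries from wild type mice (WT 1 and WT 2) and 1 library from a mouse lacking MHC class II, in which CD4 T cells were nearly absent (the deficient library). The labels give neither the strain nor the gene that was removed, and the study asked what microglia need from CD4 T cells. With 1 deficient mouse, genotype and library cannot be told apart, and no spread between deficient animals was measured.

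AP-1 is a dimer of basic leucine zipper proteins: a Jun protein pairs with itself, with a Fos protein or with an ATF protein and binds short palindromic DNA sites. Fos, Fosb, Jun, Junb and Atf3 are immediate early genes, which are transcribed within minutes of a stimulus without new protein synthesis, whereas Jund is usually transcribed steadily and Atf4 is controlled mainly at translation, in the integrated stress response. In microglia, the resident macrophages of the brain, these genes respond to damage and inflammatory signals, and they also respond to enzymatic dissociation of the tissue, a step that every library here went through and whose part in the values was not tested.

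The tables held 4589, 4815 and 2278 cell barcodes for WT 1, WT 2 and the deficient library, and 4340, 4667 and 2257 cells passed the filters, with a median of 3384.5, 3338 and 2824 unique molecular identifiers (UMIs) per cell. Between 13 and 30 barcodes were shared by any 2 libraries. The class II chains H2-Aa, H2-Ab1 and H2-Eb1 had 161.6 to 257.9 UMIs per 1000000 (CPM) in the WT libraries and were not listed in the deficient table, as its label implies. Clusters were named from marker genes, and microglia-like cells made up 3900, 4388 and 2197 of the cells kept, with a summed level of the 10 microglial markers of 35825, 37694 and 36008 CPM. The other named classes were neutrophil-like cells (283, 135 and 19), border-associated macrophage-like cells (73, 67 and 16), classical monocyte-like cells (43, 30 and 4) and non-classical monocyte-like cells (10, 12 and 14). Summed neutrophil markers in microglia-like cells were 1206, 632.9 and 49.2 CPM, so this class's RNA moved in the same direction as the subunits below; its part in them was not tested.

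The promoters of Fos, Jun and Junb are shown, since these genes hold most AP-1 UMIs of microglia-like cells in every library. Their windows also end at the annotated gene start or within 30 bases of it. The sequences are the 250 bases before the RefSeq gene start (GRCm38.p6), 5′ to 3′. Capitals mark, on either strand, the short cAMP response element TGACG, to which CREB and ATF proteins can bind. They also mark the GC box, spelled GGGCGG, the TATA box, spelled TATAAA, and the CCAAT box.
Fos, chr12:85473640-85473889, plus strand: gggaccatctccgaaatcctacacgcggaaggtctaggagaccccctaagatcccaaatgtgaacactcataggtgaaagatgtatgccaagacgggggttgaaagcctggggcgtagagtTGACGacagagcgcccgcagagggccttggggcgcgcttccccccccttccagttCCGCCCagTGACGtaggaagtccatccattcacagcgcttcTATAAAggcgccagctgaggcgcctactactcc
Jun, chr4:95052223-95052472, minus strand: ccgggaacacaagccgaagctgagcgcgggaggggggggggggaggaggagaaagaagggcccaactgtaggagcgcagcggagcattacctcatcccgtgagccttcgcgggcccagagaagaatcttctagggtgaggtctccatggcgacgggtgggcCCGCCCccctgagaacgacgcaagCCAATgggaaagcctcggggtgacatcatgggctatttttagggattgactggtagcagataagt
Junb, chr8:84978749-84978998, minus strand: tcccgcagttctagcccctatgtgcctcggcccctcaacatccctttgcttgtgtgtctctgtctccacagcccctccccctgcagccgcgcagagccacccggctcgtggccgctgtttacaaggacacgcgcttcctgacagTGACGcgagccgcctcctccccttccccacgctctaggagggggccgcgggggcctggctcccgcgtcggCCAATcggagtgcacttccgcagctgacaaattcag
TGACG lay in the windows of 5 of the 8 members, Fos, Fosb, Junb, Atf3 and Atf4, and in 17.8% of 32851 mouse promoter windows of the same length. GGGCGG lay in those of 5 members and in 32.7% of all windows, and TATAAA in that of Fos alone and in 12.4%. The AP-1 site TGANTCA, found in 6.75% of all windows, was in none of the 8. Only this exact spelling was counted, so a window may still hold a variant of the site. A match describes letters only and is not a binding site. These counts take in windows that do not sit at the GENCODE gene start: that of Jund ends 1210 bases before it, and those of Fosl2 and Atf3 lie inside the gene.

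Jun, Junb and Jund each have a single exon in the GENCODE annotation. Jund (chr8:70698949-70700616, plus strand) and Junb (chr8:84974484-84978718, minus strand) lie on the same chromosome, and Jun is at chr4:95049034-95052222, minus strand. Fos is at chr12:85473890-85477273, plus strand, Fosb at chr7:19302696-19310051, minus strand, and Fosl2 at chr5:32135801-32157842, plus strand. Atf3 is at chr1:191170296-191218039, minus strand, and Atf4 at chr15:80255184-80257541, plus strand. Levels are 3′ tag counts, so a UMI stands for a captured transcript end whatever the length of the gene.

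In microglia-like cells the deficient library was below both WT libraries for all 8 subunits, and 6 of the 8 passed the test as lower. By far the largest difference was that of Jund. Fosb, Fos, Jun, Atf3 and Atf4 were lower by smaller amounts, and Junb and Fosl2 did not pass. Over all 11861 genes tested (edgeR quasi-likelihood test on UMIs summed per library, Benjamini-Hochberg adjustment at 0.05), 7.87% were called, 6.33% as lower and 1.54% as higher, and 41.6% of genes had a deficient value below both WT values. The WT libraries also differed from each other: all 8 subunits were higher in WT 1 than in WT 2, by 0.27 to 0.79 on the log2 scale. Spread between animals comes only from this WT pair (1 residual degree of freedom), and deficient mice are assumed to vary as it does. The fit also draws each gene's spread toward that of all genes (median prior degrees of freedom 12.1). An SE can thus be small beside a gene's own WT gap: for Fos it was 0.24, against a gap of 0.79. Adjusted p values of genes with such a gap may be too small, which was not tested.

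**Figure D1:**
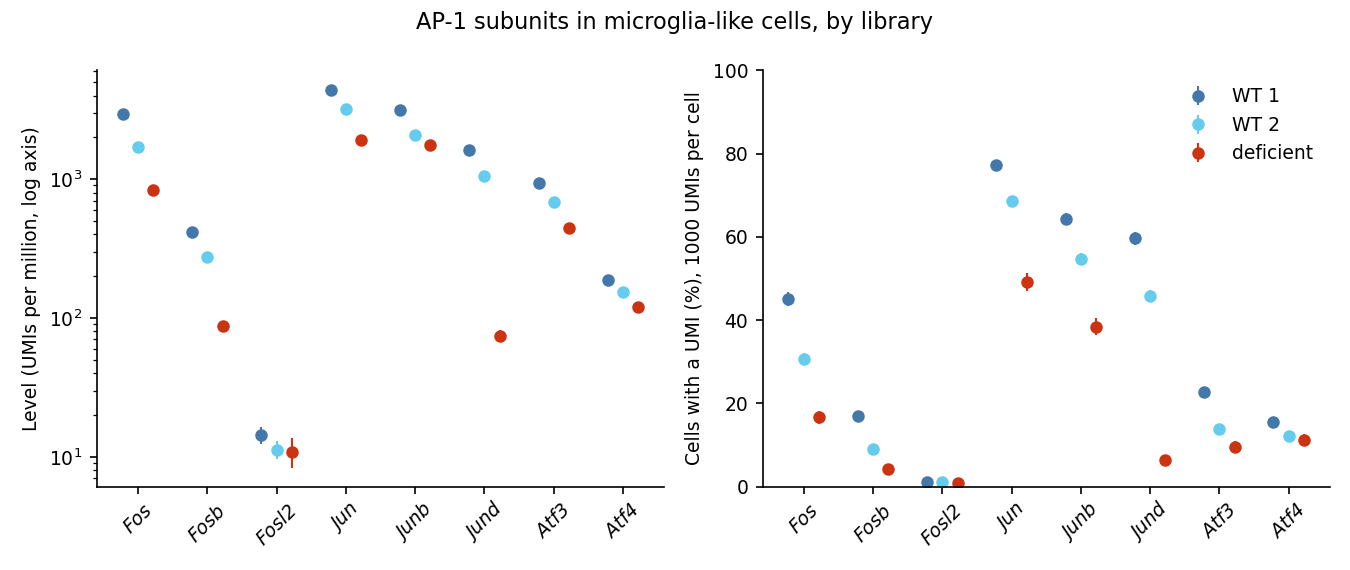
Left, level of each AP-1 subunit in microglia-like cells of each library (CPM, log axis); right, percent of cells with at least 1 UMI after each cell was thinned to 1000 UMIs. Points are libraries and bars are exact 95% intervals for counting error. The deficient library is lowest for all 8 subunits in both panels, and Jund falls to 74.2 CPM from 1609 and 1045.

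Among the Jun proteins, Jund stood at 1609 CPM (WT 1) and 1045 CPM (WT 2), against 74.2 CPM with class II absent. The WT values were thus many times the deficient one, and their own distance was small beside that gap. Jund changed by -4.15 on the log2 scale (SE 0.24, adjusted p = 5.27e-08, edgeR), the 21st lowest of the 11861 genes tested. The processing notes list the same build for every library, but which gene annotation each table was made with is not given in the sources used here, and its part in this value was not tested. Jun, the founding Jun protein and the strongest transactivator of the 3, had 4390, 3199 and 1908 CPM. Both WT values again lay above the deficient one, and Jun was called lower, at -0.98 on the log2 scale (SE 0.17, adjusted p = 0.00186, edgeR). Junb, which can hold back Jun-driven transcription, had 3130, 2081 and 1774 CPM. Here WT 2 lay closer to the deficient library than to WT 1. The log2 fold change of Junb was -0.54 (SE 0.19) and did not pass (adjusted p = 0.111, edgeR); it was -0.23 without WT 1 and -0.80 without WT 2. With every cell thinned to 1000 UMIs, where 5.58% of genes were called lower, Junb passed at -0.48 (adjusted p = 0.000279, edgeR). Its mean per thinned cell was 2.76 and 1.86 UMIs in WT 1 and WT 2 and 1.63 in the deficient library. WT 2 thus again lay closer to the deficient library than to WT 1. The smaller adjusted p did not come with a larger fold change, and this fit too draws spread from other genes.

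Among the Fos proteins, which need a Jun partner to bind DNA, Fos stood at 2940 CPM (WT 1) and 1699 CPM (WT 2), against 840.1 CPM. The WT pair was itself spread widely, with the deficient library below it. Fos changed by -1.45 on the log2 scale (SE 0.24, adjusted p = 0.000964, edgeR), and it was -1.02 without WT 1. Fosb, whose short splice form lacks the transactivating end, had 414.8, 272.9 and 87.6 CPM. Fosb was called lower, at -1.96 (SE 0.20, adjusted p = 1.16e-05, edgeR), the second-lowest value among the members. Fosl2, which encodes FRA2, a Fos protein without that transactivating end, was nearly undetected in these cells, with 199, 175 and 69 UMIs in all or 14.3, 11.1 and 10.7 CPM. WT 2 and the deficient library were indistinguishable within counting error. The log2 fold change of Fosl2 was -0.23 (SE 0.21, adjusted p = 0.615, edgeR).

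Among the ATF proteins, Atf3, a stress-induced repressor of inflammatory genes in macrophages, had 943.4, 686.4 and 442.1 CPM. The deficient library lay below both WT libraries, and Atf3 was called lower at -0.87 on the log2 scale (SE 0.16, adjusted p = 0.0022, edgeR). Atf4, the effector of the integrated stress response, had 186.6, 154.7 and 120.8 CPM. Its difference was the smallest that passed, -0.49 (SE 0.11, adjusted p = 0.0145, edgeR), and it did not pass when all retained cells were summed (adjusted p = 0.071, with 5.96% of genes called lower). DESeq2, which gave nearly the same fold changes, called 2 of the 8 members, Fosb (adjusted p = 0.00215) and Jund (adjusted p = 1.91e-13), while it called 4.21% of its 10251 genes lower. Its adjusted p was 0.346 for Fos, 0.164 for Jun, 0.299 for Atf3 and 0.051 for Atf4.

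**Figure D2:**
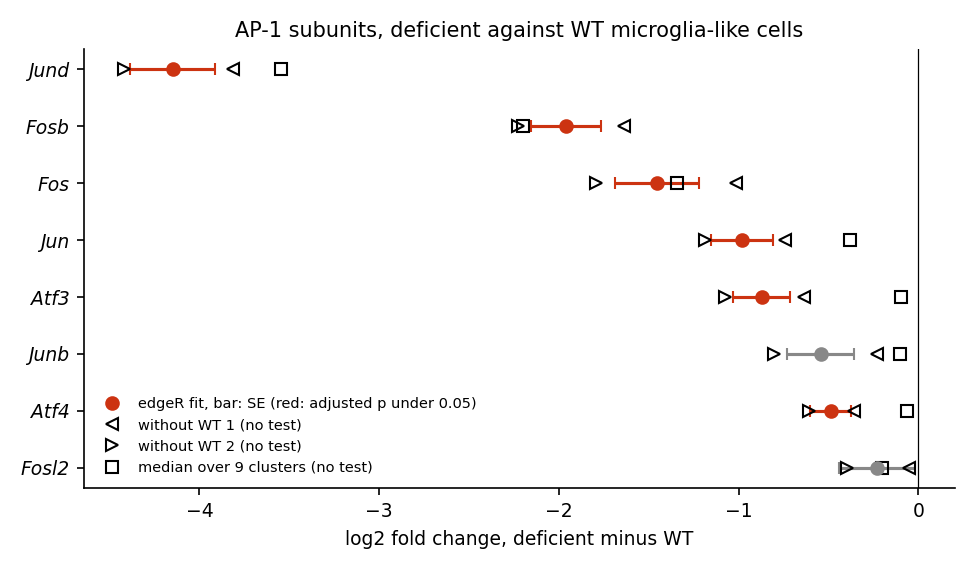
Log2 fold change of each subunit in microglia-like cells, deficient minus WT, with its standard error as a bar (red where the adjusted p was under 0.05). Triangles show the value without either WT library and squares the median over 9 clusters. Jund lies at -4.15 and at -3.54 or lower in every version, while the squares of Junb, Atf3 and Atf4 lie close to 0.

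Jund transcripts have the highest GC content of the members, 67.1%, above 99.9% of the genes tested, and those of Junb have 62.6%. Across genes, GC content and fold change were nearly unrelated (Spearman's rho = -0.01 over 11745 genes, which are not independent), and with a smooth trend on GC content taken off Jund stood at -4.08 and Junb at -0.50. In the tenth of genes with the highest GC content, 10.5% were called lower.

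The subunits were found in fewer deficient microglia-like cells. Shares were compared after each cell was thinned to 1000 UMIs, because cells of the deficient library were shallower; this left out 55, 43 and 41 cells. At that depth Jund was detected in 59.7% of WT 1 cells (95% interval 58.1 to 61.2), 45.8% of WT 2 cells (44.3 to 47.3) and 6.40% of deficient cells (5.40 to 7.52). Positive cells had 2.54 and 2.0 Jund UMIs on average in WT and 1.07 in the deficient library, where nearly every positive cell held a single UMI. With all UMIs, Jund was detected in 84.1%, 75.8% and 18.1% of cells.

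Fos was detected in 45.1%, 30.6% and 16.6% of thinned cells, in the same order of libraries, and Fosb in 17.0%, 9.05% and 4.22%. Jun, the subunit found in most cells, was in 77.3%, 68.6% and 49.2%, and Junb in 64.3%, 54.7% and 38.3%. In these genes the intervals of the 3 libraries did not overlap, and WT 1 was highest in each. Junb differed from Jund in how the UMIs were spread: positive cells held 4.29, 3.40 and 4.26 Junb UMIs, so fewer deficient cells had Junb, but those that did held as much as WT 1 cells. The same means for Fos were 5.51, 4.51 and 4.19. Atf3 was found in 22.7%, 13.8% and 9.60% of cells, Atf4 in 15.5%, 12.2% and 11.2%, and Fosl2 in 1.12%, 1.11% and 0.928%. For Atf4 and Fosl2 the intervals of WT 2 and the deficient library overlapped. No class in these libraries is known to lack AP-1 transcripts, so a background share from free RNA could not be read.

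The summed level of the 8 subunits was 13628 and 9149 CPM for the WT libraries and 5258 CPM with class II absent. The make-up of that sum was close to the same in both WT libraries and differed in the deficient one. Jund gave 11.8% and 11.4% of AP-1 UMIs in WT against 1.41%, while Junb gave 23.0% and 22.7% against 33.7%. Jun held a steadier share, of 32.2%, 35.0% and 36.3%, and Fos had 21.6%, 18.6% and 16.0%. Within a thinned cell of 1000 UMIs, the median number of AP-1 UMIs was 6, 3 and 1, the 90th percentile was 36, 20 and 12, and the single highest cell of each library held 106, 100 and 119.

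Cells with no subunit detected made up 5.07% of WT 1, 9.16% of WT 2 and 30.2% of deficient microglia-like cells at 1000 UMIs. Cells with at least 3 subunits made up 58.3%, 39.3% and 16.4%. The subunits were detected together more often than the product of their separate shares: 27, 28 and 26 of the 28 pairs were above it, with a median ratio of 1.22, 1.45 and 1.80. Each pair below it, Fosl2 with Junb or Jund, rested on 25 cells or fewer. As the ratio can reach higher values when the genes are rarer, its size was not compared between libraries.

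Fosb and Atf3 had the highest ratio in every library, with 376, 243 and 70 cells positive for both, or 2.54, 4.48 and 8.01 times the product. Among Fosb-positive cells, 57.6%, 61.8% and 76.9% also had an Atf3 UMI, against 15.5%, 9.03% and 6.63% of cells without Fosb. Fos and Fosb followed the same pattern: 79.3%, 81.2% and 81.3% of Fosb-positive cells also had Fos. Jun and Junb, both found in many cells, were at 1.08, 1.11 and 1.34 times their product.

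**Figure D3:**
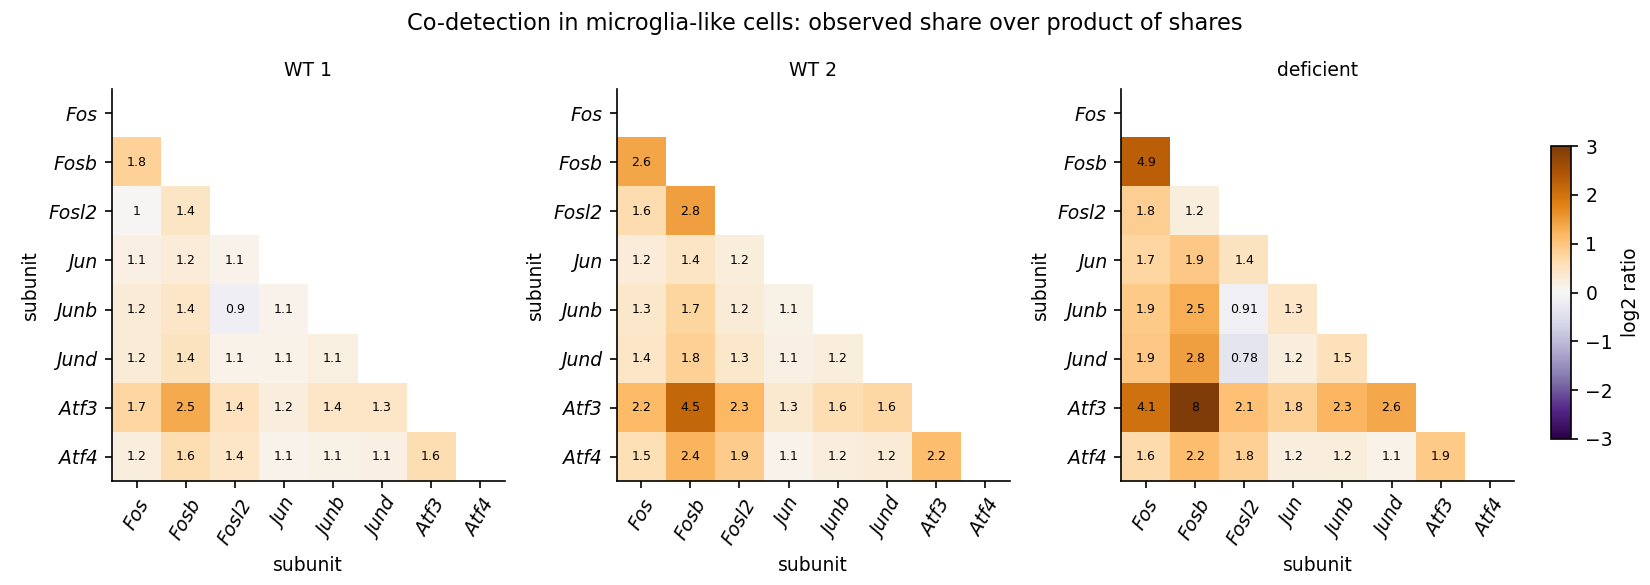
Co-detection of pairs of subunits in microglia-like cells at 1000 UMIs per cell, 1 panel per library. Each cell of the map gives the share of cells with both genes divided by the product of their shares (1 means no more than the product), coloured by its log2. Fosb with Atf3 is the highest pair in each library, at 2.54, 4.48 and 8.01.

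Cells were next split by whether they had a Fos UMI, as 1734, 1331 and 358 thinned cells did. In Fos-positive cells Jun stood at 6358, 5636 and 5550 CPM, Junb at 4602, 3898 and 5905, and Atf3 at 1565, 1560 and 1877. Junb and Atf3 of the deficient library thus lay above both WT libraries in these cells, and Jun just below both. Jund did not follow them, with 2272, 1653 and 139.7 CPM. Nor did Fosb, which was below both WT libraries, with 675.3, 613.8 and 385.5 CPM. Atf4 was slightly below both, with 216.3, 226.9 and 195.5 CPM, and Fosl2 lay between the WT libraries. Among the cells with no Fos UMI, where 4.77% of the genes tested were called lower, Jund stood at 890.6, 592.9 and 53.9 CPM and was called lower, as were Jun, Fosb, Atf3 and Junb. The log2 fold changes there were -3.75 for Jund, -2.17 for Fosb, -0.84 for Jun, -0.54 for Atf3 (adjusted p = 0.0126) and -0.47 for Junb (adjusted p = 0.000272, edgeR on thinned counts). Atf4 stood at -0.20 (adjusted p = 0.578) in these cells. Atf3 had 140.7, 81.6 and 73.4 CPM there, and Junb 1245, 957.9 and 780.3 CPM. For both genes WT 2 lay closer to the deficient library than to WT 1, and this fit too draws spread from other genes.

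The level of most subunits varied more between clusters of microglia-like cells than between libraries within a cluster. Clustering left the members and other early genes out of the variable genes, yet cluster 5, whose leading genes include Fosb and Atf3, had 11972 and 10302 CPM of Fos in WT and 8578 CPM without class II. Cluster 5 held 11.6%, 7.91% and 2.28% of the microglia-like cells. Cluster 3, second in Fos among clusters held by all libraries in the WT cells, held 25.3%, 10.5% and 1.27%. Cluster 11, with 5118 CPM of Fos, held 6.01% of deficient cells and 1 cell of the WT libraries, and clusters 3, 5 and 11 together held 36.9%, 18.4% and 9.56%. Most deficient cells, 66.1%, were in cluster 2, which held 0.641% and 1.75% of WT cells. Because clusters 2 and 11 are mostly of 1 library, they may mark that library rather than a kind of cell.

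Within the 9 clusters that had at least 25 cells of every library, Jund was below both WT values in 9 of 9, at 0.0192 to 0.151 of the WT mean (median 0.0857). In cluster 5 Jund had 3885 and 3460 CPM in WT against 270.2 CPM, and in cluster 11 it had 169.4 CPM. Fos was below both WT values in 8 of 9 clusters (median 0.395 of the WT mean), Fosb in 8 of 9 (median 0.218) and Jun in 8 of 9 (median 0.767). Junb, Atf3 and Atf4 did not keep to a side. Junb was below both WT values in 2 clusters, between them in 5 and above both in 2, with a median of 0.933 of the WT mean. Atf3 was below in 3, between in 3 and above in 3 (median 0.936), and Atf4 was below in 2, between in 4 and above in 3 (median 0.957). In cluster 5 itself Junb was at 9298 CPM (WT 1), 8547 CPM (WT 2) and 10268 CPM (deficient). These cluster values have no test, and some clusters hold as few as 25 cells of a library.

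**Figure D4:**
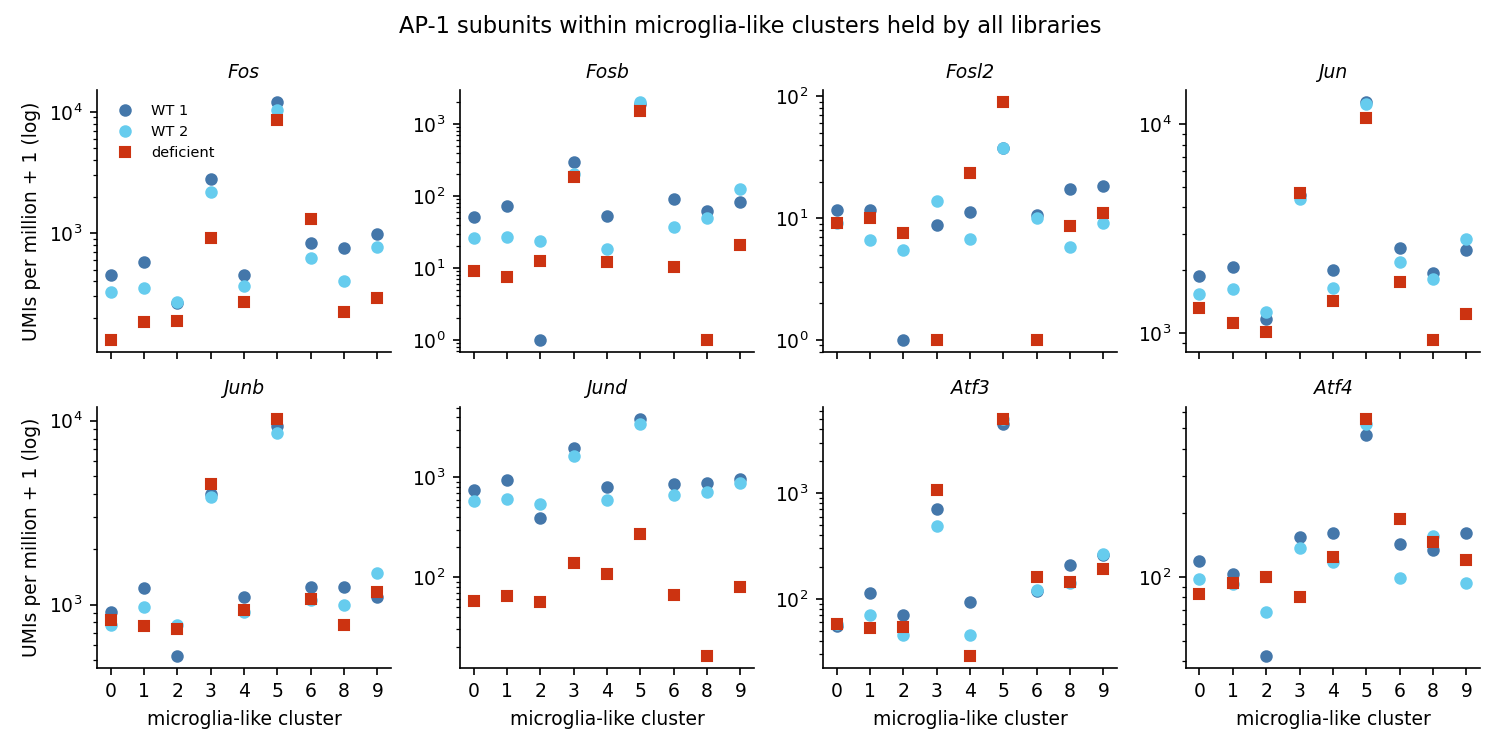
Level of each subunit (CPM plus 1, log axis) in the 9 microglia-like clusters with at least 25 cells of every library, blue for WT 1 and WT 2 and red squares for the deficient library. Jund is lower in the deficient library in all 9 clusters, whereas the red squares of Junb, Atf3 and Atf4 fall on both sides of the WT points.

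Across cell classes, border-associated macrophage-like cells, which line the meninges and vessels, had the highest mean level of 7 of the 8 subunits. Their Fos level was 5822, 3491 and 1336 CPM, and their Jun level 5778, 3680 and 1049. For these 7 genes the ranges over libraries overlapped those of the class next in order. Fosl2 was the exception in order: it was highest in classical monocyte-like cells (370.0, 303.1 and 154.6 CPM), followed by neutrophil-like cells (208.3, 172.7 and 120.0 CPM), and lowest in microglia-like cells, whose range of 10.7 to 14.3 CPM did not overlap that of any other class. When all retained cells were summed in place of microglia-like cells, the log2 fold change of Fosl2 was -1.22 (adjusted p = 0.0927, edgeR), while neutrophil-like cells made up 6.52%, 2.89% and 0.842% of the libraries. Neutrophil-like cells had the lowest mean level over the 3 libraries of Fosb, Jun, Jund, Atf3 and Atf4.

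**Figure D5:**
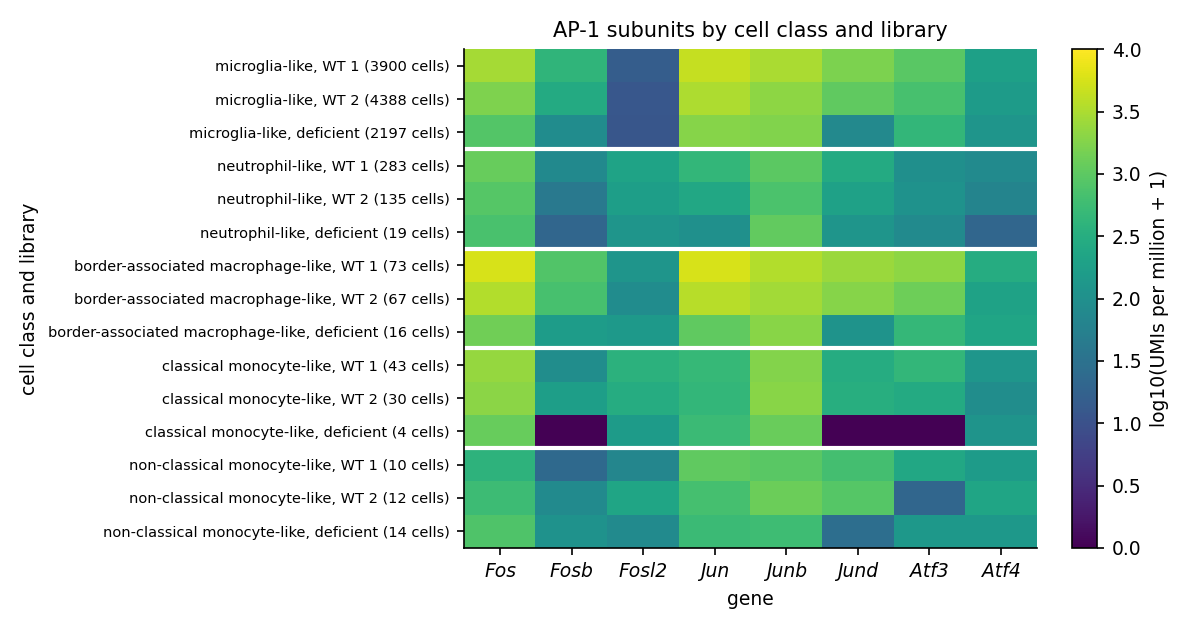
Level of the 8 subunits (colour, log10 of CPM plus 1) in each cell class and library, with the number of cells in each row. Fosl2 is darkest in microglia-like cells, at 10.7 to 14.3 CPM, and Jund is darker in the deficient library than in both WT libraries in each of the 5 classes.

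Jund was the subunit whose deficient value lay below both WT values in all 5 classes with a gap that went beyond counting error in 4 of them. In border-associated macrophage-like cells it had 2509 and 1846 CPM in WT against 111.3 CPM (7 UMIs, 95% Poisson interval 44.8 to 229.3). In non-classical monocyte-like cells it had 646.6 and 889.8 CPM against 26.8 CPM from 1 UMI (0.68 to 149.4), and in the 4 deficient classical monocyte-like cells it had no UMI, which allows up to 142.6 CPM, against 299.9 and 319.1 CPM. In neutrophil-like cells the deficient value, 120.0 CPM from 6 UMIs (44.0 to 261.2), was not distinguishable from 191.9 CPM in WT 2. No test between libraries was made in these small classes.

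Likeness to each member was measured across microglia-like cells as the mean over 3 libraries of Pearson's r, among 6192 genes that are no member. Egr1, a zinc finger early-response factor, Dusp1, a phosphatase that switches off MAP kinases, and Ier2 were the 3 closest of these to Fos (mean r 0.633, 0.628 and 0.586), to Fosb and to Atf3 (0.663, 0.643 and 0.636). Dusp1, Egr1 and Zfp36, which promotes decay of inflammatory messenger RNAs, were the 3 closest to Jun (0.487, 0.474 and 0.461) and to Junb. Among the same 6192 genes, Dusp1, Egr1 and Nfkbia, the inhibitor of NF-kappaB, were the 3 closest to Jund. For Dusp1, r with Jund was 0.226 in deficient cells, below 0.507 (WT 1) and 0.486 (WT 2). With all UMIs, however, Jund was detected in only 18.1% of deficient cells, against 84.1% (WT 1) and 75.8% (WT 2). The part of this lower detection in the smaller r was not tested, so no loss of likeness is read from it. For Fosl2 and Atf4 the highest values among these genes were low, 0.143 and 0.270. Among pairs of members, Fos with Jun (0.506) was above the closest of these genes to Jun (0.487) but below the 3 closest to Fos. Fos with Atf3 (0.598) was below Egr1 and Dusp1 for Fos and below the 3 closest to Atf3. These are descriptions: cells of a library share its depth and handling.

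Other early genes were lower with the AP-1 subunits. Of 30 other immediate early genes tested, 21 were called lower and 0 higher (6.33% and 1.54% of all genes tested), with a median log2 fold change of -1.18 where that of all genes tested was near 0, and DESeq2 called 11 lower (4.21% of its genes). Their summed level was 15238, 11019 and 5819 CPM. Klf2, a Krüppel-like factor that restrains inflammatory activation, had 1566 and 1082 CPM in WT against 22.6 CPM (log2 fold change -5.86). Rhob, an early-response small GTPase, fell by 1.45 on the log2 scale and Btg2, an antiproliferative early gene, fell by 1.03. This list was chosen with results of these data known, so its direction is not independent evidence.

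Of 35 tested genes of the MAP kinase cascade, which leads to AP-1, 7 were lower and 0 higher, where 6.33% of all genes tested were lower, with a median log2 fold change of -0.08. Nras, a small GTPase at the top of the cascade (0.18, adjusted p = 0.318, edgeR), and the kinase Rps6ka1 (-0.08, adjusted p = 0.707) did not pass. Of 13 nuclear factors listed as regulators of Fos and Jun, 1 was called lower, a share near that of all genes tested. It was Elk3, a partner of serum response factor (log2 fold change -0.38, adjusted p = 0.0201, edgeR). Mef2c (0.10) and Mef2a (-0.08), MEF2 factors expressed in microglia, did not pass. Of 11 feedback genes, which are induced by MAP kinases and damp them, 4 were lower and 0 higher, Dusp1 at -0.93 (adjusted p = 0.00204) and Dusp2 at -2.85 (adjusted p = 0.000208), with Dusp6 at -0.37 (adjusted p = 0.0512).

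Counts in the next lists stand against 6.33% of all genes tested called lower and 1.54% called higher. Of 28 other bZIP factors tested, 6 were lower and 0 higher (median -0.05). Maf, a bZIP factor of macrophages, stood at 511.4, 488.1 and 502.3 CPM and did not pass. Of 30 eIF2 alpha kinases and ATF4 targets, 2 were higher and 3 lower (median 0.06). Ddit4, an inhibitor of mTORC1 signalling, rose from 14.6 and 21.98 CPM to 65.8 CPM (log2 fold change 1.85, adjusted p = 6.62e-06), while Slc7a5, an amino acid transporter, was lower at -0.89 and its partner Slc3a2 stood at 0.04. Of 17 textbook AP-1 targets, 1 was higher and 2 lower (median -0.35). Hmox1, the haem-degrading enzyme, rose by 0.58 on the log2 scale and Il1b, the cytokine interleukin-1 beta, fell by 0.97, while Icam1, an adhesion molecule, stood at -0.15. Of 12 heat shock genes, 2 were lower and 0 higher (median -0.18), Dnajb4 among them at -0.94, with Hspa8 at -0.36 (adjusted p = 0.105) and Hsp90ab1 at 0.12 not passing.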

How the data were processed

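The authors deposited 1 table of raw counts (UMIs) for each library of the 10x 3′ kit. The submitters' processing notes list Cell Ranger 3.0, Seurat 2.2 and the build mm10. Any filter of theirs is not given in the sources used. Total counts were 16230216, 17293844 and 6616662 UMIs for WT 1, WT 2 and the deficient library. A gene reached a table only with UMIs in about 5 cells or more, so an unlisted gene is below that limit.

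Cells were kept from 500 UMIs and 200 genes upward, with mitochondrial UMIs of no more than 10%. Scrublet called 29 of 11264 cells (0.257%) as doublets: 0 in WT 1, 1 in WT 2 and 28 (1.24%) in the deficient library. It is taken not to have worked, so none were removed. Counts were scaled to 10000 per cell; 2000 variable genes, chosen without the members, early, heat shock, class II and sex-linked genes, gave 30 principal components and Leiden clusters at resolution 1 (scanpy 1.11.5, leidenalg 0.10.2). A cluster was named from markers where at least 3 were each in 10% of cells. As cells are not replicates, counts of microglia-like cells were added up within each library, and CPM is UMIs per 1000000 of that sum. Genes listed in all tables and passing filterByExpr were tested with edgeR 4.0.16 (TMM, quasi-likelihood, R 4.3.3); alternatives used DESeq2 1.42.0 and limma voom 3.58.1. SEs were derived from the F statistic. Fits were also run on counts simulated with the spread that the fit itself estimated. Such a run cannot show whether that spread is too small for a gene. Intervals are exact (Clopper-Pearson or Poisson, 95%) and cover counting error only. Positions and transcript GC content are from GENCODE release 21 for mouse.

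The members, gene lists and tests were chosen with earlier results of these data known. Named genes were the 8 members, the 2 genes of each list with the highest mean CPM, and the largest called change in each direction at 20 CPM or more. Some genes this rule takes are not reported here. Egr1, Ier2, Zfp36 and Nfkbia were named by likeness, among genes with a UMI in at least 5% of microglia-like cells of every library. Values within clusters were added after the data were seen.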

Additional observations from a re-analysis of the deposited data

Results flagged for a closer look

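In 2 cases a subunit of the deficient library lay on the other side of both WT libraries in another cell class than in microglia-like cells, among classes with at least 15 cells of every library. Junb in neutrophil-like cells was 1080.0 CPM in the deficient library (54 UMIs in 19 cells, 95% Poisson interval 811.3 to 1409.2) and 975.7 and 734.4 CPM in WT 1 and WT 2, whereas in microglia-like cells it was below both. Fosl2 in border-associated macrophage-like cells was 143.1 CPM in the deficient library (9 UMIs in 16 cells, 65.4 to 271.7) and 122.7 and 87.3 CPM in WT. The difference between classes was not tested, and both deficient intervals include a WT value.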

How the results depend on the processing

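DESeq2 gave the lowest counts of calls: 2 members lower, 432 genes lower, 55 higher and 25 genes of the 8 other lists lower, against 6, 751, 183 and 44. With all retained cells summed, 112 genes were higher and 714 lower. In cells without a Fos UMI, thinned, 115 genes were higher and 472 lower. The other settings left these counts within 1.5 times: normalisation, count and cell filters, unlisted genes as 0, limma voom, cells thinned to 1000 UMIs, clustering and removal of doublet calls. All fold changes of the members stayed negative in every setting run. Jund ranged from -4.42 to -3.54 and Fosb from -2.23 to -1.64, and both were called in 13 of 13 tests; Fos was called in 11 of 12. Junb was called in 2 of 13, at -0.48 (adjusted p = 0.000279) with thinned cells and in cells without a Fos UMI. Atf4 lost its call with all retained cells (adjusted p = 0.071), in cells without a Fos UMI and with DESeq2. Without either WT library, Fos lay between -1.79 and -1.02, Jun between -1.19 and -0.74, Atf3 between -1.08 and -0.63, and Atf4 between -0.61 and -0.36, with no test. The median over clusters, a setting added after the data were seen, was -0.38 for Jun, -0.10 for Junb, -0.10 for Atf3 and -0.06 for Atf4. The cause of these changes was not tested. No paired analysis was possible, because there is 1 deficient library and the labels name no pairs. With 1 deficient library, its own spread is unknown, and 19 or fewer cells limit each of its classes other than microglia-like cells.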
